A study of Mus musculus with 154 samples.

Results

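The drug-metabolizing cytochrome P450 enzymes of families 1 to 3 were followed in the livers of mice that carry 1 or 2 chromosomes of strain A/J on the C57BL/6J (B6) background. All protein-coding genes with a symbol starting with Cyp1a, Cyp1b, Cyp2 or Cyp3 were taken except Cyp2a4, Cyp2b9, Cyp2b10, Cyp3a16 and Cyp3a44, which left 37 of the 13289 genes in the table. The rule goes by symbol, but genes with few counts had been removed from the table and earlier results of these data were known. The same rule finds 56 genes in the GENCODE vM21 annotation, and the 19 others are not among the genes analysed here.

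P450 enzymes of these families are haem proteins of the endoplasmic reticulum that insert an oxygen atom into drugs, toxins, steroids, bile acids and fatty acids. They receive electrons from P450 oxidoreductase and are made mainly in hepatocytes, many of them around the central vein. Several are induced by foreign compounds through nuclear receptors, CAR (Nr1i3) and PXR (Nr1i2) for families 2 and 3 and the aryl hydrocarbon receptor (Ahr) for family 1.

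Liver RNA of 154 male mice, 5 weeks old and fasted overnight, was sequenced. Of these, 20 were B6, and the others came from 8 single and 15 double chromosome substitution strains (CSSs), all F1 mice heterozygous for each A/J chromosome. The single CSSs, with 8 mice each except for 7 of the A5 strain, are called A3 to A17 after the substituted chromosome. A3 was (B6.A3 x B6)F1, A4 was (B6 x B6.A4)F1, A5 was (B6 x B6.A5)F1, A6 was (B6.A6 x B6)F1, A8 was (B6 x B6.A8)F1, A10 was (B6 x B6.A10)F1, A14 was (B6.A14 x B6)F1 and A17 was (B6.A17 x B6)F1. A double CSS such as (B6.A14 x B6.A8)F1 is written A14:A8, and the 15 crosses pair dams B6.A3, B6.A6, B6.A14 or B6.A17 with sires B6.A4, B6.A5, B6.A8 or B6.A10. A6:A8 had 6 mice, A3:A8 had 3, A6:A5, A17:A10 and A17:A4 had 4, and each of the other double CSSs had 5. A main effect is how far, in log2 units, a single CSS lies from B6. An interaction is how far, in the same units, a double CSS lies from the sum of its main effects. A whole chromosome was exchanged, so an effect cannot be placed on any 1 gene of it. The A/J chromosome came from the dam for A3, A6, A14 and A17 and from the sire for A4, A5, A8 and A10, so it cannot be told apart from the side of inheritance.

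The table held 4638701 to 30465477 counts per mouse, with a median of 16116424, and the median count over mice of a P450 gene was 9 or more. Levels are in CPM, counts per 1000000 of a TMM-scaled library. Mouse E733 of strain A14:A4 was labelled male but had a sum of 2.94 CPM over 4 Y-linked genes, against 227.5 to 431.98 CPM in the other mice. In this mouse the male-biased Cyp2d9 was at 44.03 CPM, against 350.2 to 1324 CPM elsewhere, and Cyp2u1 (14.1 CPM) and Cyp2c67 (24.6 CPM) were the lowest of all mice. Its Cyp2c37 (435.8 CPM), Cyp2a22 (60.6 CPM) and Cyp2c39 (17.9 CPM) were the highest, and 1 other mouse had more Cyp2c69 than its 174.2 CPM. Results that rest on this mouse are given with and without it. All 7 hepatocyte marker genes were in the table, and their sum was 89681 to 147080 CPM in B6. In bulk liver, fewer cells of a type and less RNA per cell cannot be told apart.

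The 5 Cyp3a genes, all on chromosome 5, hold much of what follows, with a gene that varied widely (Cyp3a11) and one that was lower with A/J chromosome 5 (Cyp3a13), and their promoters are shown to set these members side by side. Each sequence spans 250 bases before to 50 after the RefSeq start on the gene's own strand (GRCm38.p6). Capitals mark the nuclear receptor half-sites AGGTCA and AGTTCA on either strand. The positions are chr5:145879805-145880104 (Cyp3a11, minus strand), chr5:146009569-146009868 (Cyp3a25, minus), chr5:145345019-145345318 (Cyp3a57, plus), chr5:146079008-146079307 (Cyp3a59, plus) and chr5:137921570-137921869 (Cyp3a13, minus).
Cyp3a11: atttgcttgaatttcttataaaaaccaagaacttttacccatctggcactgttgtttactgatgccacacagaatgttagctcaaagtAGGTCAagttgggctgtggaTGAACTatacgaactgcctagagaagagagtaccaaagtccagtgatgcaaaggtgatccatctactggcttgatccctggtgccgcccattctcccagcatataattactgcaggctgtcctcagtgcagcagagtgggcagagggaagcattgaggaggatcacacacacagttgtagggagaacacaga
Cyp3a25: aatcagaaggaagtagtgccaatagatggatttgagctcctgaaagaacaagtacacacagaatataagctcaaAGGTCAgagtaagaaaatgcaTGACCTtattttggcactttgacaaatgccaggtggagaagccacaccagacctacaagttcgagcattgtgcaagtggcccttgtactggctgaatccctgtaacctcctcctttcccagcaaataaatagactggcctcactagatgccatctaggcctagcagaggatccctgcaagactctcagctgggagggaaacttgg
Cyp3a57: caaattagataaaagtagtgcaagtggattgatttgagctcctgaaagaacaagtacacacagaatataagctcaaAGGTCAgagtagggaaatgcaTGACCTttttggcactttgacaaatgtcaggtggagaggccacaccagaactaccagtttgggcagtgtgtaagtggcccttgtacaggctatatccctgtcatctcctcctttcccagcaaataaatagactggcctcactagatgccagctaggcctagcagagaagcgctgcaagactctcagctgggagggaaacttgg
Cyp3a59: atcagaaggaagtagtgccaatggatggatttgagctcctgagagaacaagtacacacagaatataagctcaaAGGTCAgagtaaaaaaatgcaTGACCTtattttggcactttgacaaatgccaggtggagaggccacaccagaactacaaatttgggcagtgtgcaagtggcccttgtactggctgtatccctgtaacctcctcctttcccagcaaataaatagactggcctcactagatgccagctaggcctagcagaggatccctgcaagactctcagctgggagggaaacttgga
Cyp3a13: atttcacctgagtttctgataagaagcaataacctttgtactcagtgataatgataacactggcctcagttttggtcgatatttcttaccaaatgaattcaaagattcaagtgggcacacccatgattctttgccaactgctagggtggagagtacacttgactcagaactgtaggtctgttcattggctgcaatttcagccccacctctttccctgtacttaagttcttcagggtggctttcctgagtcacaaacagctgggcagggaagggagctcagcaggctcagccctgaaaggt

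Both half-sites were searched in the RefSeq promoters of 31 of the 37 genes, which were those with an entry. AGGTCA stood in 10 of the 31, against 16.2% of 32544 promoters of all genes, and AGTTCA in 5 of them, against 14%. Either one stood in 14 of the 31, against 27.7%. At least 2 half-sites stood in 4 P450 promoters, those of Cyp3a11, Cyp3a25, Cyp3a57 and Cyp3a59, against 5.21% of all promoters. The first began at -162, -176, -174 and -177 from the start and the second at -142, -155, -153 and -156, in that order. In Cyp3a11 the pair is AGGTCA and, on the other strand, AGTTCA, while in the other 3 genes both are AGGTCA on opposite strands. The Cyp3a13 window held neither. An everted pair of AGTTCA half-sites with 6 bases between them was in none of the 31 windows and in 0.00615% of all promoters. Cyp3a25 and Cyp3a59 were identical at 96.3% of 299 compared bases, by the best match without gaps. Cyp3a11 was identical at 32.4% of the bases compared with Cyp3a13, and at 37.5%, 36.4% and 37.3% with Cyp3a25, Cyp3a57 and Cyp3a59. Near-identical genes can share reads, since 26.8% of the 50-base windows of Cyp3a25 transcripts and 30.02% of those of Cyp3a59 also occur in transcripts of other genes. The share was 6.73% for Cyp3a11 and 0 for Cyp3a13. It was highest for Cyp2c40 (60.3%), Cyp2c69 (54.3%), Cyp2c67 (52.8%) and Cyp2c68 (43.3%), so the values of these 4 are uncertain, and 10% or more was shared in 17 of the 37 genes.

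Together the 37 genes took 1.10% to 2.80% of the counts of a mouse, with a median of 1.82%. Cyp2e1, which oxidizes ethanol and acetone, held 35.8% of their summed mean CPM. The Cyp3a genes held 30.9%, the 13 Cyp2c genes 11.9% and the 6 Cyp2d genes 10.4%. Compared per kilobase of exon, Cyp2e1 led with 3110 CPM per kb, followed by Cyp3a11 (851), Cyp3a25 (520), Cyp2d9 (351), Cyp2f2 (301), Cyp2d26 (272), Cyp2d10 (222) and Cyp2j5 (218). Cyp2c50 (189), Cyp2c29 (147), Cyp2c54 (139), Cyp2c68 (135), Cyp2a12 (121.6), Cyp3a13 (108) and Cyp2c37 (103.1) also had mean levels above 100 CPM per kb. Middle levels in CPM per kb were those of Cyp2c70 (92.5), Cyp1a2 (88.7), Cyp2a5 (84.0), Cyp2c23 (75.3), Cyp2c67 (39.2), Cyp2d22 (33.8), Cyp3a59 (29.1), Cyp2c40 (28.1), Cyp2c38 (20.02), Cyp2j6 (19.9), Cyp2c69 (19.6) and Cyp2d40 (13.96). The lowest levels per kb were 8.99 for Cyp2u1, 6.73 for Cyp2a22, 5.32 for Cyp2j9, 4.84 for Cyp2r1, 4.31 for Cyp2c39, 0.728 for Cyp2d34, 0.495 for Cyp2c55, 0.380 for Cyp3a57, 0.291 for Cyp2g1 and 0.195 for Cyp1b1.

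Differences among the 24 strains were found for most of these genes. By the quasi-likelihood test of edgeR, with p-values adjusted by the Benjamini-Hochberg method, 33 of the 37 passed the joint test of strain differences at a false discovery rate of 0.05, against 51.4% of all genes. The 4 that did not were Cyp2a22 (edgeR adjusted p = 0.0636), Cyp1b1 (0.0771), Cyp2c39 (0.0822) and Cyp2d9 (0.395). The smallest adjusted p-values were 5.15e-15 for Cyp3a13, 9.96e-09 for Cyp2c23, 1.94e-07 for Cyp3a11, 3.22e-07 for Cyp3a25, 9.70e-07 for Cyp2f2 and 2.12e-06 for Cyp2d22. The joint test of the 15 interactions was passed by 17 of the 37, against 27.4% of all genes. Of single effects, 39 main effects in 22 genes passed, 22 of them higher than B6 and 17 lower, and so did 29 interactions in 16 genes. Of these 16 genes, Cyp2a22, Cyp2c55, Cyp2g1 and Cyp3a13 did not pass the joint test of interactions (edgeR adjusted p = 0.105, 0.0706, 0.0953 and 0.115). In 12 genes neither a main effect nor an interaction passed, namely Cyp2a5, Cyp2c38, Cyp2c39, Cyp2c40, Cyp2c50, Cyp2c54, Cyp2c68, Cyp2c69, Cyp2d34, Cyp2d9, Cyp2j5 and Cyp2j6.

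**Figure D1:**
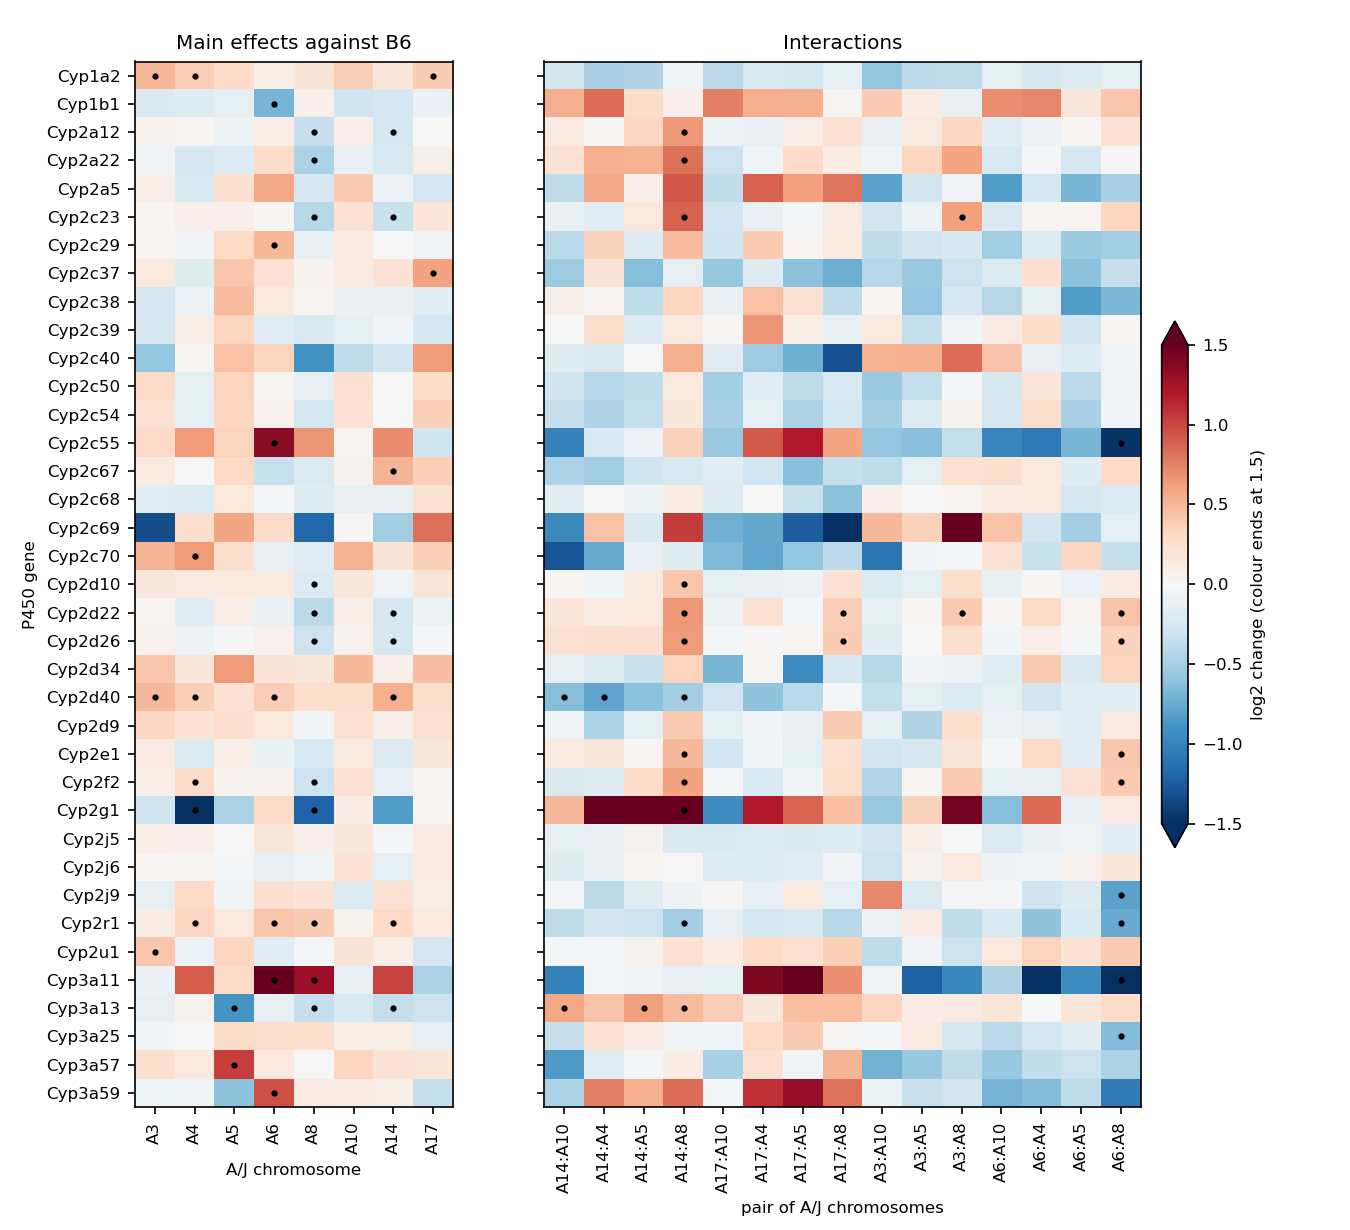
Rows are the 37 P450 genes and columns the 8 main effects (left) and the 15 interactions (right), with colour for the log2 change from the edgeR model and ending at 1.5 in each direction. Dots mark the 39 main effects and 29 interactions that passed a false discovery rate of 0.05. They are densest in columns A8, A14:A8 and A6:A8, with 11, 12 and 9 of the 37 genes, near the 29.6%, 32.4% and 24.8% of all genes that passed there.

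Cyp3a11, the main mouse counterpart of human CYP3A4 and a target of PXR, was the most variable abundant gene of the group (ENSMUSG00000056035, chr5:145854426-145879964, minus strand). Among the 20 B6 mice, which are genetically alike, 16 had 894 to 2100 CPM and the other 4 had 7478, 8769, 8799 and 9330 CPM, with none between. In the 8 A6 mice the values were 6803, 7096, 8199, 8492, 8611, 8947, 9351 and 10353 CPM. All 8 therefore lay above the 16 lower B6 mice and around the 4 higher ones. The fitted main effect of A6 was 1.52 (SE 0.40) on the log2 scale (edgeR adjusted p = 0.00959). An exact two-sided permutation test of mean log2 CPM, chosen after the separate B6 values were seen, gave a difference of 2.06 and p = 9.36e-05 (0.000749 adjusted over the 8 single CSSs).

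The 8 A8 mice had 947, 1315, 1355, 1517, 6074, 8048, 11062 and 11323 CPM of Cyp3a11, falling on both sides of the gap in B6. The fitted effect of A8 was 1.28 (SE 0.49, edgeR adjusted p = 0.0390), but it passed neither the exact permutation test (difference 0.73, adjusted p = 0.406) nor DESeq2's Wald test, and with 10 surrogate variables (unmeasured sources of variation estimated from the data) in place of 5 it was 1.17 and did not pass. Neither A4 (exact permutation difference 0.85) nor A14 (0.56) passed, with adjusted p-values of 0.29 and 0.406.

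In the double CSS A6:A8 the 6 mice had 803, 892, 985, 5191, 5965 and 6687 CPM of Cyp3a11. None lay between 985 and 5191 CPM, and all 6 were below the lowest A6 mouse at 6803 CPM. The interaction was -2.55 (SE 0.76, edgeR adjusted p = 0.00740) where the main effects summed to 2.80, and the double CSS differed from B6 by 0.25 (SE 0.49). The interaction was -2.27 with 10 surrogate variables and did not pass.

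In 5 other double CSSs every mouse lay above the lower set of B6 mice. A14:A8 mice had 7227, 7688, 8688, 9880 and 10167 CPM, A17:A4 mice had 6835, 7085, 7950 and 10682 CPM, and A17:A5 mice had 5727, 7581, 7764, 8127 and 10685 CPM. A14:A4 mice had 4869 (E733), 7344, 9212, 9534 and 10652 CPM, and A14:A5 mice 3711 to 9791 CPM. Against B6 the log2 differences were 2.17 for A14:A8 (edgeR adjusted p = 0.00191), 1.84 for A17:A4 (0.0191), 1.61 for A17:A5 (0.00988) and 1.91 for A14:A4 (0.00188), which was 1.98 (0.00397) without E733. A14:A5 differed by 1.25 (SE 0.46), which did not pass (edgeR adjusted p = 0.0801). A17:A8, with 1 mouse at 548.3 CPM and the others at 5863 to 8909 CPM, also differed (1.49, edgeR adjusted p = 0.0415). No exact permutation test was run for the double CSSs, and these contrasts were fitted with 5 surrogate variables alone. In the 5 passing contrasts of a double CSS with B6 the percentage of all genes passing was 4.82% for A14:A8, 4.15% for A17:A4, 1.44% for A17:A5, 13.9% for A14:A4 and 6.06% for A17:A8. High values were absent in A17:A10, with 913 to 1821 CPM, in A3:A10, with 641 to 2239 CPM, and in A3:A5, with 1079 to 2612 CPM.

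**Figure D2:**
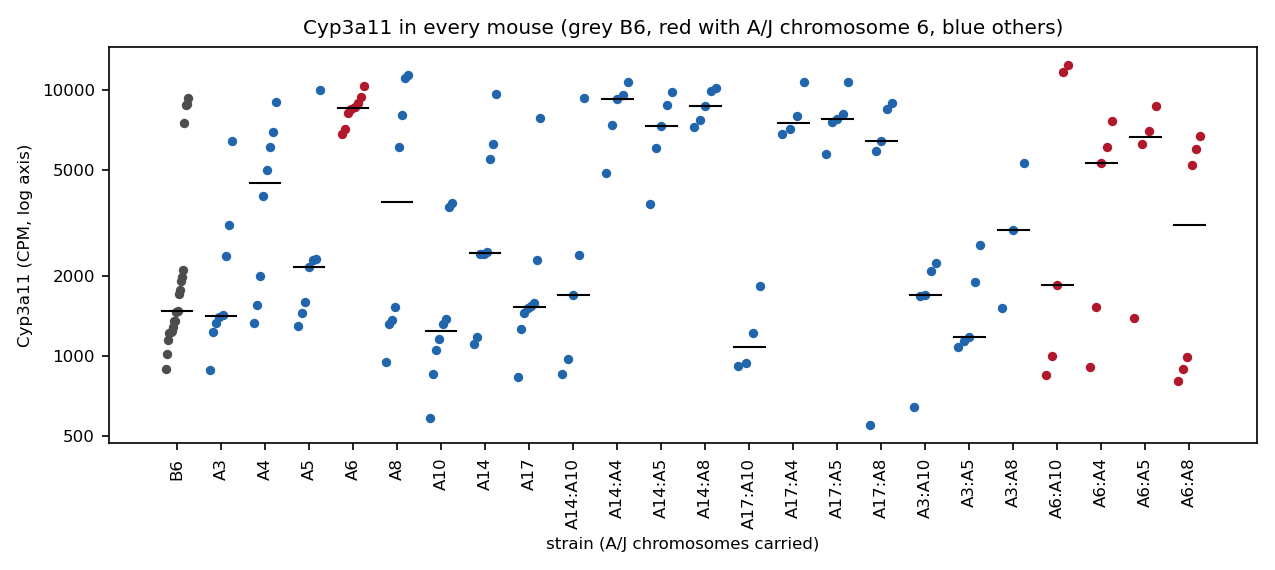
Cyp3a11 in CPM by mouse for each strain, with each point a mouse. B6 has 16 mice from 894 to 2100 CPM and 4 from 7478 to 9330 CPM, all 8 A6 mice lie at 6803 CPM or more, and of the A6:A8 mice 3 lie at 803 to 985 CPM and 3 at 5191 to 6687 CPM, inside the gap. Across the 154 mice, 71 were at or under the lower edge of that gap, 44 between and 39 at or over its upper edge.

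The 4 B6 mice with high Cyp3a11 also stood apart for a few other genes, which is a description, as they were picked by Cyp3a11. Ranges that do not overlap between the 4 and the other 16 were found for 2 of the 36 other P450 genes and 1 of 14 receptor-responsive genes outside these families, against 0.188% of all genes. Cyp3a59, a neighbour of Cyp3a11, was at 82.3 to 104 CPM in these 4 and at 24.1 to 70.7 CPM in the other 16. Cyp2c55, an inducible enzyme that oxidizes arachidonic acid, was at 1.21 to 1.97 CPM against 0.29 to 0.97 CPM. The carboxylesterase gene Ces2a, a PXR target outside the P450 families, was at 256 to 325 CPM against 87.9 to 133 CPM. Nqo1, Ugt1a1, Abcc2 and Slco1a4, further receptor-responsive genes, overlapped. Total counts of the 4 libraries, 6752637 to 16563915, were all below the median of the others, 19907976 (9359204 to 25630807), and included the smallest B6 library. Alb, the albumin gene, was at 66922 to 76303 CPM in the 4 and at 72284 to 116120 CPM (median 83840) in the others. The part of depth and of the Alb level in this gap was not tested. Their flow cells are not given in the labels, so a part of the library run in this gap was not tested.

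**Figure D3:**
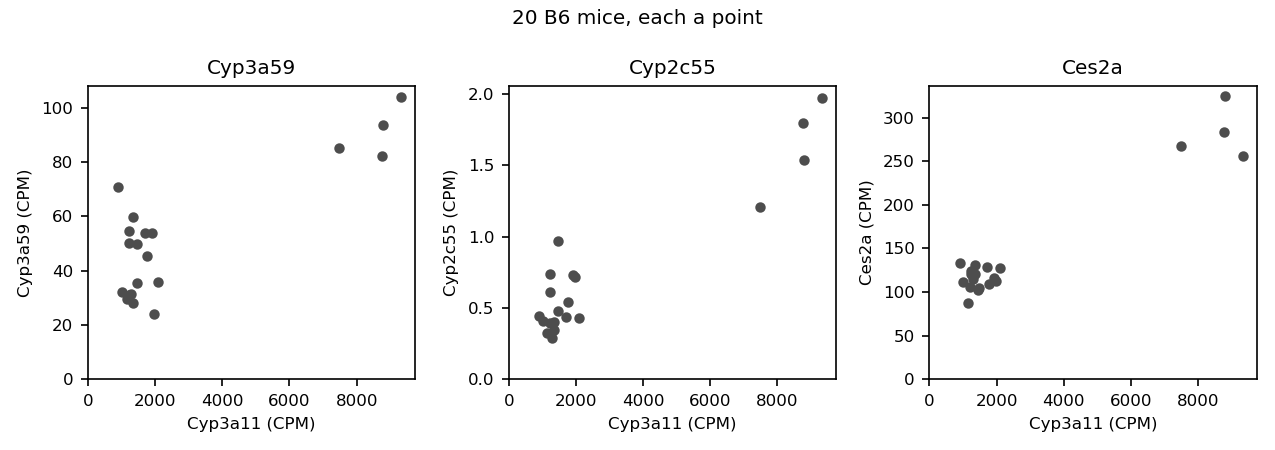
Cyp3a59, Cyp2c55 and Ces2a (vertical axes, CPM) against Cyp3a11 (horizontal axis, CPM) in the 20 B6 mice, each a point. The 4 mice with 7478 CPM or more of Cyp3a11 are above the other 16 in all 3 panels.

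Cyp3a59 and Cyp2c55 were also higher in A6. Both also set the B6 mice with high Cyp3a11 apart, so a shift in this direction occurred without an A/J chromosome. Over all mice, with strain means removed, Cyp3a11 had r = 0.86 with Cyp3a59 and r = 0.76 with Cyp2c55. The A6 effects on these genes are therefore not independent of that on Cyp3a11. Cyp3a59 ranged from 71.5 to 150 CPM in A6 (median 120) and from 24.1 to 104 CPM in B6 (median 50.04), which overlap, and the main effect was 0.96 (SE 0.24, edgeR adjusted p = 0.00575). Cyp2c55 was 1.06 to 2.52 CPM in A6 (median 1.90) and 0.29 to 1.97 CPM in B6 (median 0.51), with a main effect of 1.35 (SE 0.31, edgeR adjusted p = 0.00272). In A6:A8 the Cyp2c55 level was 0.44, 0.55, 0.81, 0.86, 0.99 and 1.88 CPM, and the interaction was -1.47 (SE 0.55, edgeR adjusted p = 0.0394), which did not pass with 10 surrogate variables (-1.48, edgeR adjusted p = 0.185).

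Altogether 7 of the 37 genes passed for A6, against 8.09% of all genes, and 6 of them were higher, against 4.30%. The others were Cyp2c29 (0.49), a CAR target, Cyp2r1 (0.41), the vitamin D 25-hydroxylase, and Cyp2d40 (0.37). Cyp1b1, an oestrogen hydroxylase scarce in liver, was lower (-0.69), from a level near 1 CPM. Cyp2c29 was 510.98 to 788 CPM in A6 (median 662.3) and 238 to 830 CPM in B6 (median 424). Cyp3a11, Cyp3a59 and Cyp2c55 passed for A6 with 10 surrogate variables and the other 4 did not, at 0.40 for Cyp2c29, 0.27 for Cyp2r1, 0.31 for Cyp2d40 and -0.57 for Cyp1b1. None of the 7 genes lies on chromosome 6.

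Cyp3a13 was lower wherever chromosome 5 came from A/J (ENSMUSG00000029727, chr5:137892932-137921619, minus strand). The enzyme hydroxylates steroids and is the Cyp3a gene that lies apart from the main cluster. In B6 it ranged from 249 to 784 CPM with a median of 341, and in the 7 A5 mice from 152.9 to 287 CPM with a median of 190. A3:A5 mice had 155, 158, 169, 191.01 and 223 CPM, all below the lowest B6 mouse, and A6:A5 mice had 137.5, 173, 219 and 241.3 CPM, also all below it. A14:A5 mice had 199, 227, 253, 257 and 284.3 CPM and A17:A5 mice 159, 165.1, 219, 223 and 313 CPM, so that these strains reached into the B6 range.

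The main effect of A5 on Cyp3a13 was -0.88 (SE 0.11, edgeR adjusted p = 3.40e-11), or 0.543 times the B6 level. It passed in each of the 14 alternative analyses, from -0.94 to -0.86, none of which left out an A5 or B6 mouse. Against B6 the double CSSs differed by -0.92 (A3:A5), -0.84 (A6:A5), -0.61 (A14:A5) and -0.74 (A17:A5), with edgeR adjusted p-values of 4.91e-09, 1.59e-06, 0.000124 and 1.09e-06. Cyp3a13 was also lower in A8 (-0.34, edgeR adjusted p = 0.0132), where the 8 mice had 226 to 329 CPM, and in A14 (-0.35, edgeR adjusted p = 0.00766), with 173 to 434 CPM. Its interactions were 0.62 in A14:A5 (SE 0.18, edgeR adjusted p = 0.0285), 0.57 in A14:A10 (0.18, 0.0467) and 0.48 in A14:A8 (0.18, 0.0281), while the joint test of interactions was not passed (edgeR adjusted p = 0.115). Without E733 the A14:A10 and A14:A8 values were 0.58 and 0.44 and did not pass (edgeR adjusted p = 0.0574 and 0.0540). Neither the A8 effect nor any of the 3 interactions passed with 10 surrogate variables (edgeR adjusted p = 0.0619 to 0.188), and with none the A14 effect was -0.23 and did not pass (edgeR adjusted p = 0.19).

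**Figure D4:**
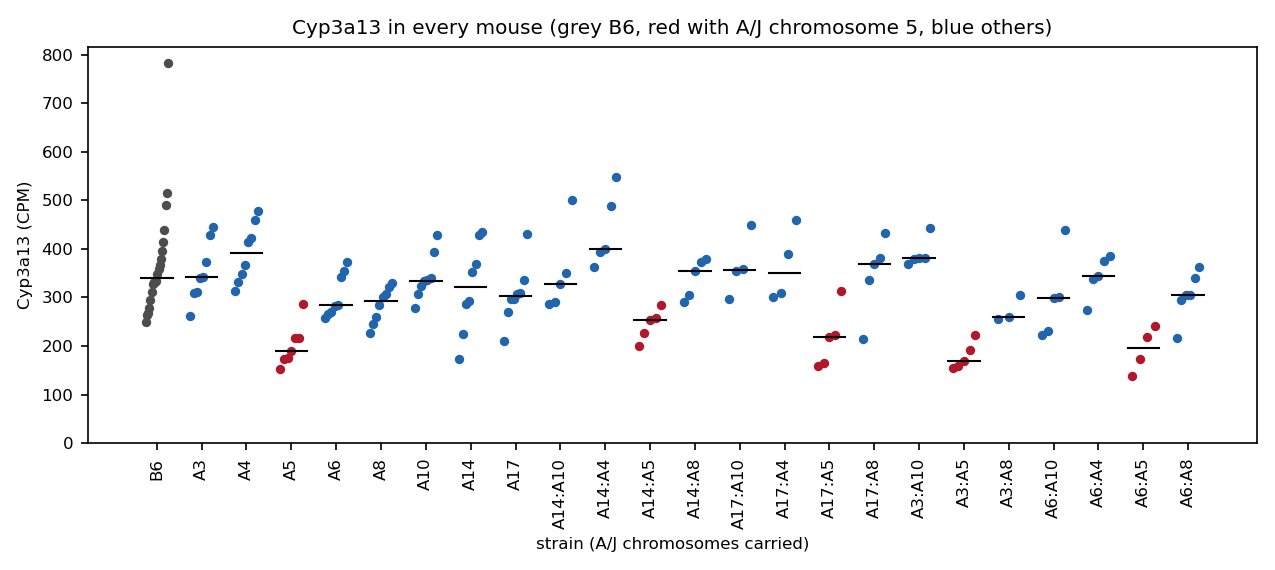
Cyp3a13 in CPM by mouse for each strain, each point a mouse. The 7 A5 mice lie at 152.9 to 287 CPM and those of the 4 double CSSs with A/J chromosome 5 at 137.5 to 313 CPM, against 249 to 784 CPM in B6.

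Only Cyp3a13 and Cyp3a57 of the 37 genes passed for A5, against 0.768% of all genes. Both are among the 5 P450 genes on the substituted chromosome, where 7.72% of all genes passed. Cyp3a57 was higher (1.04, SE 0.25, edgeR adjusted p = 0.00132), at 0.70 to 2.08 CPM in A5 and 0 to 1.21 CPM in B6, and these are low levels that were not tested under the low-count filter. Cyp3a25, an abundant steroid hydroxylase gene, had a main effect of 0.28 (SE 0.10, edgeR adjusted p = 0.0630) that did not pass. Against B6, however, Cyp3a25 was higher in all 4 double CSSs with A/J chromosome 5, by 0.38 in A3:A5 and A6:A5, 0.48 in A14:A5 and 0.54 in A17:A5 (edgeR adjusted p = 0.00856, 0.0358, 0.00143 and 0.000133). A17:A5 mice had 1252, 1366, 1375, 1483 and 1738 CPM, and B6 mice 760.7 to 1413 CPM with a median of 973. In these contrasts 13.5% (A3:A5), 2.42% (A6:A5) and 1.53% (A14:A5) of all genes passed, and the A17:A5 figure is given above. In A3:A5, 10 of the 37 genes passed, among them Cyp2d34 (1.02), which was higher, and Cyp3a59 (-1.01), which was lower. The 4 contrasts share the B6 mice. Over all mice, with strain means removed, Cyp3a25 had r = 0.69 with Cyp3a11, so its values are not independent of those of Cyp3a11. Cyp3a59, the gene that shares most transcript windows with Cyp3a25, had an A5 effect of -0.62 (SE 0.27, edgeR adjusted p = 0.185), which did not pass. The part of shared reads in the values of these 2 genes was not tested.

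Other P450 genes that lie on a substituted chromosome were Cyp2u1 for A3, the 3 Cyp2j genes for A4 and Cyp1b1 for A17. Cyp2u1, which hydroxylates fatty acids (chr3:131288441-131303227, minus strand), was 43.1 to 72.9 CPM in A3 (median 55.0) and 30.6 to 56.5 CPM in B6 (median 42.1). The ranges overlap, and the main effect was 0.41 (SE 0.11, edgeR adjusted p = 0.00742), on a chromosome where 11.9% of genes passed. A3:A5 mice had 65.5, 67.2, 71.0, 72.9 and 76.0 CPM, all above the highest B6 mouse. For the epoxygenase genes Cyp2j5, Cyp2j6 and Cyp2j9 the A4 effects were 0.07, 0.03 and 0.29, with edgeR adjusted p-values of 0.381, 0.848 and 0.0974, on a chromosome where 26.2% of genes passed. For Cyp1b1 the A17 effect was -0.10 (edgeR adjusted p = 0.807), where 17.1% of genes passed.

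A8 lowered 9 of the 37 genes, against 16.7% of all genes, and 11 passed in either direction, against 29.6%. A14 lowered 5, against 12.6%, and 8 passed, against 22.5%. Cyp2c23, an epoxygenase of arachidonic acid (ENSMUSG00000025197, chr19:44005022-44029208, minus strand), was 80.8 to 136.1 CPM in A8 (median 100.99) and 88.7 to 137.9 CPM in A14 (median 115), against 124.04 to 233 CPM in B6 (median 155). Of the 8 mice each, 6 of A8 and 5 of A14 lay below the lowest B6 mouse. The main effects were -0.43 (SE 0.10, edgeR adjusted p = 0.000207) and -0.33 (0.09, 0.00344). Fewer of the 37 genes passed with 10 surrogate variables, 3 for A8 and 4 for A14, and the A14 effect on Cyp2c23 was -0.22 and did not pass.

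In A14:A8 the 5 mice had 143, 157, 168, 178 and 185 CPM of Cyp2c23, all within the B6 range and above every A8 and A14 mouse. The interaction was 0.89 (SE 0.15, edgeR adjusted p = 8.42e-07), and the double CSS differed from B6 by 0.13 (SE 0.10). Main effect in A8 and interaction passed in each of the 14 alternatives, none of which left out a B6 or single CSS mouse.

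Cyp2d22 and Cyp2d26, of the subfamily that holds human CYP2D6, moved likewise. Cyp2d22 was 84.0 to 116.7 CPM in A8 and 84.0 to 135 CPM in A14, against 115 to 167 CPM in B6, and was 134.8, 135.96, 136.1, 137.01 and 146.1 CPM in A14:A8. Cyp2d26 was 296 to 479 CPM in A8 and 311 to 460 CPM in A14, against 443 CPM or more in B6, and was 458.6, 491, 495, 499 and 562 CPM in A14:A8. The 5 double CSS mice lay within the B6 range for both genes. The interactions were 0.65 (SE 0.11, edgeR adjusted p = 1.13e-06) and 0.64 (SE 0.10, edgeR adjusted p = 3.26e-08). With 10 surrogate variables that of Cyp2d26 was 0.52 and passed, whereas that of Cyp2d22 was 0.26 and did not (edgeR adjusted p = 0.0643), nor did the A8 effect on Cyp2d22, which went from -0.39 to -0.13.

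The Cyp2a genes, which oxidize steroids and coumarin-like compounds, held 2 further examples. Cyp2a12 was 229 to 374.2 CPM in A8 and 251 to 469 CPM in A14, against 323.5 to 488 CPM in B6, and was 393, 399, 428, 434 and 481 CPM in A14:A8, with an interaction of 0.65 (SE 0.11, edgeR adjusted p = 1.86e-06). Cyp2a22 was 12.98 to 22.6 CPM in A8, 15.6 to 32.9 CPM in A14 and 17.5 to 33.0 CPM in B6. Its A14:A8 mice had 20.2, 26.1, 26.8, 27.1 and 30.96 CPM, and the interaction was 0.82 (SE 0.24, edgeR adjusted p = 0.00483). All 4 ranges overlap for Cyp2a22. The interactions with 10 surrogate variables were 0.35 for Cyp2a12, which passed, and 0.34 for Cyp2a22, which did not (edgeR adjusted p = 0.444).

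A14:A8 had 12 passing interactions among the 37 genes, against 32.4% of all genes, and 10 were positive, against 18.1%. The others were Cyp2f2 (0.60), which activates naphthalene in lung and is periportal in liver, Cyp2e1 (0.48), Cyp3a13 (0.48), Cyp2d10 (0.41), the olfactory-type gene Cyp2g1 (2.07, from under 2 CPM), Cyp2r1 (-0.52) and Cyp2d40 (-0.52). With 10 surrogate variables 5 of the 12 passed, those of Cyp2c23, Cyp2a12, Cyp2d26, Cyp2f2 and Cyp2d10. Cyp2e1 was then at 0.06, Cyp2r1 at -0.14, Cyp2g1 at 1.15 and Cyp2d40 at -0.38. Over the 37 genes the median interaction was 0.32 on the log2 scale, against 0.02 over all genes. The main effects and interactions share the B6 and single CSS mice and are therefore not independent, which bears on every pair of values set side by side here. Against B6, A14:A8 differed for 3 of the genes, Cyp3a11, Cyp2c55 (1.71) and Cyp3a59 (1.05).

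**Figure D5:**
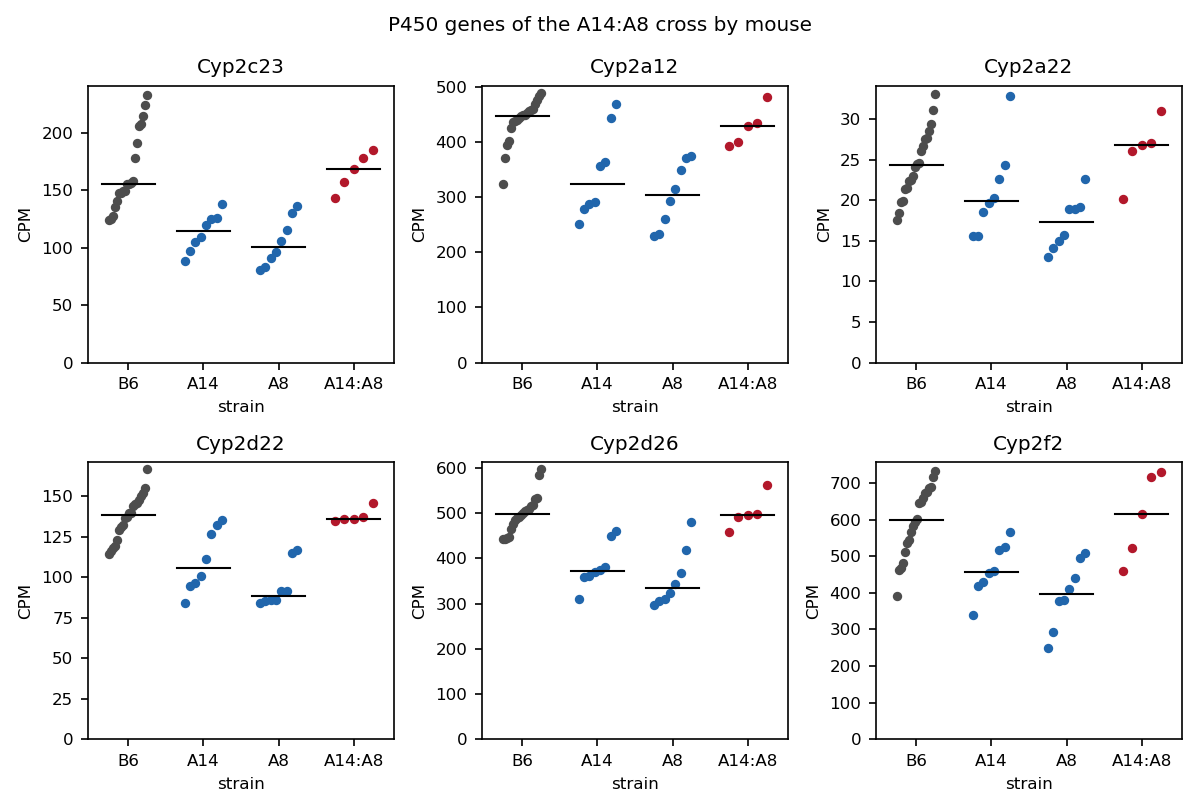
Cyp2c23, Cyp2a12, Cyp2a22, Cyp2d22, Cyp2d26 and Cyp2f2 in CPM by mouse in B6, A14, A8 and A14:A8, with each point a mouse and the bar at the median. For Cyp2c23 the A14:A8 mice (143 to 185 CPM) lie above all A8 mice (up to 136.1 CPM) and all A14 mice (up to 137.9 CPM).

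Levels of hepatocyte and periportal marker genes moved with these strains. The summed CPM of the 7 hepatocyte markers had a median of 106390 in B6 (89681 to 147080), 70123 in A8 (47104 to 98490), 80543 in A14 (52745 to 115870) and 105190 in A14:A8 (86136 to 112950). The sum of 8 periportal genes was 13764 to 21056 CPM in B6, 7757 to 13073 CPM in A8, 6935 to 17755 CPM in A14 and 15744 to 17347 CPM in A14:A8. For 9 pericentral genes outside the P450 families the medians were 1874, 1349, 1488 and 1536 CPM. The 7 Kupffer cell markers overlapped, at 301 to 533 CPM in B6 and 287 to 616 CPM in A8. The part of these marker levels in the P450 results of A8, A14 and their crosses was not tested.

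Cyp2c23, Cyp2d22 or Cyp2d26 also passed in the other crosses with A8. In A6:A8, 9 of the 37 genes had passing interactions, against 24.8% of all genes, and 5 were negative, against 11.4%. Beside Cyp3a11 and Cyp2c55 these were Cyp2j9 (-0.80), Cyp2r1 (-0.75), Cyp3a25 (-0.65), Cyp2d22 (0.42), Cyp2e1 (0.41), Cyp2f2 (0.39) and Cyp2d26 (0.34). Cyp3a25 was 1026 to 1377 CPM in A6 and 903 to 1527 CPM in A8, and in A6:A8 it was 722, 773, 788, 878, 938 and 1185 CPM, with 5 of the 6 mice below every A6 mouse. The Cyp3a25 interaction is not independent of that of Cyp3a11, since the 2 genes had r = 0.69 with strain means removed. Without E733 the Cyp2e1 interaction was 0.35 and did not pass (edgeR adjusted p = 0.0615). Against B6, 2 of the 37 genes passed in A6:A8, Cyp2d34 (0.70) and Cyp2d40 (0.47), where 2.25% of all genes did.

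A3:A8, against 7.56% of all genes, had 2 passing interactions, Cyp2c23 (0.62, SE 0.16, edgeR adjusted p = 0.00984) and Cyp2d22 (0.39, SE 0.12, edgeR adjusted p = 0.0322). The 3 mice had 187.5, 201 and 209 CPM of Cyp2c23, above every A8 mouse. A17:A8, against 8.68% of all genes, had Cyp2d26 (0.38) and Cyp2d22 (0.37). Without E733 the Cyp2d22 values were 0.34 in A3:A8 and 0.31 in A17:A8, and neither passed (edgeR adjusted p = 0.0643 and 0.0678). No interaction of the 37 genes passed in A6:A8, A3:A8 or A17:A8 with 10 surrogate variables. Cyp2d22 was then at 0.03, 0.08 and 0.04 in these crosses, and in A6:A8 Cyp2e1 was at 0.06, Cyp2j9 at -0.37 and Cyp2r1 at -0.39. The 4 crosses share the A8 mice.

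Cyp2d40, a low-level gene of the Cyp2d cluster, was higher in 4 single CSSs, with main effects of 0.53 in A14, 0.49 in A3, 0.37 in A6 and 0.36 in A4. In A14 the 8 mice had 17.4 to 36.5 CPM (median 27.3) and in B6 14.1 to 27.1 CPM (median 20.8), which overlap. Its interactions were -0.79 in A14:A4, -0.64 in A14:A10 and -0.52 in A14:A8. The 5 A14:A4 mice had 14.4 (E733), 19.4, 20.8, 24.7 and 25.03 CPM, all within the B6 range. Without E733 the A14:A4 interaction was -0.74 (SE 0.21, edgeR adjusted p = 0.0348) and that of A14:A10, with -0.65, did not pass (0.0513). With 10 surrogate variables the effects in A14 and A3 passed, while those in A6 (0.31) and A4 (0.30) and the 3 interactions (-0.73, -0.56 and -0.38) did not. For A14:A10, A14:A4 and A14:A5, 2, 1 and 1 of the 37 genes passed, against 4.16%, 4.63% and 4.04% of all genes.

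Cyp1a2, the caffeine-oxidizing enzyme controlled by Ahr, was higher in A3 (0.49, SE 0.11), A17 (0.38, SE 0.12) and A4 (0.37, SE 0.12), with edgeR adjusted p-values of 0.00483, 0.0469 and 0.0249. A3 mice had 180 to 256 CPM (median 221) and B6 mice 74.4 to 248 CPM (median 158). In A3, 3 of the 37 genes passed, all higher, against 3.70% of all genes in either direction and 1.94% higher. In A17, 2 passed, against 3.67%, and the other was Cyp2c37 (0.60, SE 0.15), at 179 to 368 CPM against 104 to 243 CPM in B6. Cyp1a2 passed with 10 surrogate variables in A3 (0.50) but not in A17 (0.45) or A4 (0.32), and Cyp2c37 (0.55) did not pass. With none the A3 effects on Cyp1a2 and Cyp2d40 did not pass either.

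A4 had 6 passing genes, against 13.5% of all genes, and 5 were higher, against 7.60%. Cyp2c70, which hydroxylates bile acids in mice, had the largest increase (0.64, SE 0.22, edgeR adjusted p = 0.0433), at 142 to 355 CPM in A4 and 52.5 to 392 CPM in B6. It passed in 5 of 14 alternatives, was 0.61 without E733 (edgeR adjusted p = 0.0556) and 0.09 with 10 surrogate variables (edgeR adjusted p = 0.895), where none of the 37 genes passed for A4. Cyp2f2 was higher in A4 (0.29) and lower in A8 (-0.32), and was the only one of the 37 genes with passing main effects in both directions. Its level was 605 to 824 CPM in A4, 248 to 509 CPM in A8 and 392 to 732.7 CPM in B6, so the A4 and A8 mice did not overlap. Cyp2g1 was lower in A4 (-1.72) and A8 (-1.21), from under 2 CPM. The remaining passing effects were Cyp2r1 in A8 (0.38), A4 (0.32) and A14 (0.30), Cyp2d10 in A8 (-0.20, and -0.16 without E733, which did not pass) and Cyp2c67 in A14 (0.51, SE 0.14), which was 69.7 to 104 CPM against 38.3 to 101.2 CPM in B6. The Cyp2r1 effects were 0.16, 0.13 and 0.12 with 10 surrogate variables and did not pass, nor did those on Cyp2g1 (-1.29 in A4 and -0.86 in A8) and Cyp2d10 (-0.12). With none that on Cyp2c67 did not pass.

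No P450 gene passed for A10, where 6.64% of all genes did and 10 of the 37 had an unadjusted p under 0.05 by edgeR, as did 21.9% of all genes. None passed for the interactions A17:A10, A17:A4, A17:A5, A3:A10, A3:A5, A6:A10, A6:A4 and A6:A5, where 0.113%, 1.21%, 0%, 1.17%, 0%, 0.0527%, 0.542% and 0% of all genes passed. In these crosses 7, 4, 10, 10, 2, 4, 4 and 4 of the 37 genes had an unadjusted p under 0.05, against 12.3%, 15.6%, 9.32%, 14.5%, 4.49%, 11.8%, 15.1% and 5.68% of all genes. DESeq2's Wald test likewise called none of the 37 for A10, and in these crosses it called Cyp2f2 in A3:A10 and Cyp2r1 in A6:A4 alone.

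The partners of P450 enzymes were examined in lists chosen for their roles. Effects on the electron partner, haem, receptor and receptor-responsive genes are given from the fitted model alone. Their outcomes in the alternative analyses are not given, unlike those of the P450 genes, so these effects are not shown to be firmer. All 6 electron partners passed the joint strain test, which 51.4% of all genes passed. Por, the P450 oxidoreductase gene, was lower in A8 (-0.80, SE 0.14, edgeR adjusted p = 4.42e-06), A3 (-0.59, SE 0.13, edgeR adjusted p = 0.00343) and A14 (-0.47, SE 0.13, edgeR adjusted p = 0.00441). Por ranged from 140 to 281 CPM in A8 and from 241.6 to 624.7 CPM in B6, and was 270.8 to 350 CPM in A14:A8, where its interaction was 0.95 (SE 0.22). Cyb5r3, a reductase of cytochrome b5, was higher in A3 (0.26), and Pgrmc1, a haem-binding partner of P450s, in A3 (0.18), A4 (0.23), A6 (0.20) and A8 (0.19).

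Of 12 haem genes 6 passed the joint strain test, near the 51.4% of all genes. Alad, an early enzyme of haem synthesis whose gene lies on chromosome 4, was higher in A4 (0.65, SE 0.07, edgeR adjusted p = 1.35e-14). Blvrb, a biliverdin reductase, was higher in A8 (0.51), A14 (0.41), A6 (0.38) and A4 (0.28), and Urod had a passing interaction in A14:A8 (0.39).

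Of 12 receptor genes and partners 7 passed the joint strain test, also near that share. Nr1i2, encoding PXR, was lower in 7 of the 8 single CSSs, from -0.51 in A8 to -0.27 in A6. In A6, where Cyp3a11 was high in all 8 mice, Nr1i2 was 51.9 to 74.3 CPM against 52.8 to 95.8 CPM in B6. Ppara, the fatty acid receptor, was lower in A4 (-0.34), A8 (-0.37) and A14 (-0.32), while no single effect on Ahr passed. Of 14 receptor-responsive genes outside the P450 families 13 passed, with Ces2a higher in A6 (0.81, SE 0.20, edgeR adjusted p = 0.00502), at 237.4 to 323.7 CPM against 87.9 to 325 CPM in B6. Gstm1 had a passing interaction in A14:A8 (0.85) and Gstm3 in A6:A8 (-1.62).

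Among the 20 B6 mice, 8 pairs of genes were examined for co-variation of log2 CPM, with 100000 two-sided permutations and adjustment over the 8 pairs. Cyp2c50 and Cyp2c54, neighbours on chromosome 19, had r = 0.97 and rho = 0.97 (permutation p adjusted 4e-05 and 8e-05). The r without the 2 mice farthest from the median was 0.97, and 18.3% and 25.7% of their transcript windows are shared with other genes. The gene that shares most windows with Cyp2c54 is Cyp2c50, and the part of shared reads in this r was not tested. Cyp1a2 and Cyp2e1, which share no cluster, had r = 0.84 and rho = 0.79 (permutation p adjusted 4e-05 and 0.00028), and r = 0.75 without the 2 farthest mice. The smallest p that these permutations can give is 1e-05. Cyp2c29 and Cyp2c70 had r = 0.58 (permutation p adjusted 0.0208), but rho = 0.49 (0.0578) and r = 0.43 without 2 mice, so the relation rests partly on those mice.

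Nr1i3 and Cyp2c29 had r = 0.43 and rho = 0.50 (permutation p adjusted 0.112 and 0.0578), which did not pass, and r was 0.67 without the 2 farthest mice. Ahr with Cyp1a2 (r = 0.16, rho = 0.22) and Por with Cyp2c29 (r = -0.08, rho = 0.08) did not pass either (permutation p adjusted 0.404 to 0.743). For Cyp3a11 no value over all B6 mice is given because they fall into separate sets. Over the 16 lower mice, Nr1i2 and Cyp3a11 had r = -0.34 and rho = -0.30, and Cyp3a11 and Cyp2c29 r = 0.25 and rho = 0.25 (permutation p adjusted 0.309 to 0.471). Over all 154 mice, with strain means removed, the highest correlations among the 37 genes were 0.94 for Cyp2c50 with Cyp2c54, 0.92 for Cyp2c40 with Cyp2c69 and 0.86 for Cyp3a11 with Cyp3a59. These are descriptions, since all genes of a mouse share its library, and the genes of each pair can also share reads. The gene sharing most windows with Cyp2c54 is Cyp2c50, and with Cyp2c40 it is Cyp2c69. Removing strain means leaves the separate sets of Cyp3a11 values within B6 and other strains in place.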

How the data were processed

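Liver (caudate lobe) RNA of 154 mice was sequenced by the authors from stranded total RNA libraries with single-end reads. Per the study's methods, reads were aligned with TopHat2 to mm10 with GENCODE vM7 and those left unmapped to an A/J genome individualized from it. HTSeq-count gave the reads per gene, and genes with few counts were removed. The deposited values are raw counts per gene, without normalization. Depth was 4638701 to 30465477 counts per mouse. Replicates are separate mice. Flow cell and litter of a library are not given in the labels.

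Mice were grouped by the strain in their labels, which list the sire first. Counts were TMM-normalized and fitted with edgeR 4.0.16 under R 4.3.3, over all 13289 genes. The model had 8 main effects and 15 interactions, plus 5 surrogate variables that sva 3.50.0 (svaseq) estimated. Effects were tested with edgeR's quasi-likelihood test (legacy=TRUE), with Benjamini-Hochberg adjustment within each effect for genes on and off the substituted chromosomes separately, at a false discovery rate of 0.05. The surrogate variables are part of the fitted effects but not of the CPM values, which use TMM library sizes. Log2 CPM used a prior count of 2. Names and positions came from GENCODE vM21 (GRCm38). Of the 13289 genes, 47 had no position and were treated as lying elsewhere. Promoters came from RefSeq (GRCm38.p6).

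The genes and lists were chosen with earlier results of these data known. Genes named are those called with the largest effects (up to 6 per main effect and 5 per interaction, mean log2 CPM of at least 2), all called genes on a substituted chromosome, and 3 per partner list. Other genes were named after their values were seen. Alternatives were 0 or 10 surrogate variables, DESeq2 size factors, a filter of 15 counts in 75% of mice (11852 genes), DESeq2's Wald test (version 1.42.0), legacy=FALSE, unsplit adjustment, leaving out mouse E733, and leaving out each replicate number of the double CSSs. Contrasts of a double CSS with B6 were repeated only without mouse E733. The scripts were tested on simulated data.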

Additional observations from a re-analysis of the deposited data

Results flagged for a closer look

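In 198 combinations of a strain of 4 to 8 mice and a named gene, the highest or lowest mouse was compared with the others, and 18 stood apart, where chance gives about 1 in 20, or 9.9. Cyp3a11 had 4 such mice, each far above its strain, with 6389 CPM in A3 (nearest 3088), 9997 in A5 (nearest 2314), 7833 in A17 (nearest 2295) and 9331 in A14:A10 (nearest 2380). The A5 mouse also had the highest Cyp3a25, 1608 CPM (nearest 1219), and the A14:A10 mouse the highest Cyp2d26, 609 CPM (nearest 513.2). Cyp3a25 stood apart in A4 at 1266 CPM (nearest 1015) and in A17:A4 at 1027 CPM (nearest 1150). Mouse E733 of A14:A4, with almost no Y-linked counts, stood apart for Cyp2a22 at 60.6 CPM (nearest 23.7) and Cyp2d26 at 627 CPM (nearest 468). The others were Cyp3a13 in A3:A10 at 443 CPM, Cyp2c23 in A14:A10 at 128 CPM and in A14:A5 at 97.1 CPM, Cyp2f2 in A3:A5 at 461 CPM and in A6:A10 at 949 CPM, Cyp2d22 in A14:A8 at 146.1 CPM, Cyp2a22 in A17 at 14.7 CPM, and Cyp2d26 in A17:A10 at 416 CPM.

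The effect of an A/J chromosome differed with the presence of a second one in 29 interactions by edgeR's quasi-likelihood test, on the log2 scale. In A14:A8 these were Cyp2g1 2.07, Cyp2c23 0.89, Cyp2a22 0.82, Cyp2d22 0.65, Cyp2a12 0.65, Cyp2d26 0.64, Cyp2f2 0.60, Cyp2e1 0.48, Cyp3a13 0.48, Cyp2d10 0.41, Cyp2r1 -0.52 and Cyp2d40 -0.52. In A6:A8 they were Cyp3a11 -2.55, Cyp2c55 -1.47, Cyp2j9 -0.80, Cyp2r1 -0.75, Cyp3a25 -0.65, Cyp2d22 0.42, Cyp2e1 0.41, Cyp2f2 0.39 and Cyp2d26 0.34. In A3:A8 they were Cyp2c23 0.62 and Cyp2d22 0.39, and in A17:A8 Cyp2d26 0.38 and Cyp2d22 0.37. The others were Cyp3a13 0.57 and Cyp2d40 -0.64 in A14:A10, Cyp2d40 -0.79 in A14:A4 and Cyp3a13 0.62 in A14:A5. The crosses with A8 share the A8 mice and those with A14 the A14 mice.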

How the results depend on the processing

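Of 47 named effects, 10 passed in every alternative in which they were tested and none changed sign. These were the main effects on Cyp2u1 (A3), Cyp3a13 and Cyp3a57 (A5), Cyp3a11 and Cyp3a59 (A6), Cyp2c23 (A8) and Cyp2d40 (A14), and the A14:A8 interactions of Cyp2c23, Cyp2a12 and Cyp2d26. Cyp3a57 was tested in 13 of the 14, since its counts were under the low-count filter. No alternative left out a B6 or single CSS mouse, so how far a main effect rests on any such mouse was not tested. With 10 surrogate variables 33 of the 47 did not pass, with 0 surrogate variables 15, and without E733 5. The cause was not tested.

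With 10 surrogate variables the counts of called P450 genes were 11 in the joint interaction test, 21 over main effects and 7 over interactions, with 0 for A4, 3 for A6, 3 for A8, 4 for A14 and 0 for A17, 5 for A14:A8 and 0 for A14:A10, A14:A4, A14:A5, A17:A8, A3:A8 and A6:A8. With 0 surrogate variables there were 51 interactions, with 1 for A3, 1 for A4, 19 for A8, 6 for A17, 3 for A14:A4, 3 for A14:A5, 8 for A17:A8, 7 for A3:A8 and 16 for A6:A8. With the low-count filter there were 1 for A5, 1 for A14:A10, 2 for A14:A4, 0 for A14:A5, 1 for A17:A8 and 1 for A3:A8. A14:A10 had 0 with DESeq2 size factors, and A14:A5 had 2 with DESeq2's Wald test and 2 with legacy=FALSE. Without E733 there were 0 for A14:A10, 1 for A17:A8 and 1 for A3:A8.

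Leaving out each replicate number of the double CSSs in turn gave 32 to 34 genes in the joint strain test, 11 to 20 in the joint interaction test, 37 to 47 main effects and 20 to 39 interactions, with 3 to 3 for A3, 4 to 8 for A4, 2 to 3 for A5, 8 to 9 for A6, 10 to 16 for A8, 7 to 9 for A14, 1 to 2 for A17, 0 to 2 for A14:A10, 1 to 4 for A14:A4, 0 to 2 for A14:A5, 10 to 14 for A14:A8, 1 to 5 for A17:A8, 2 to 5 for A3:A8 and 6 to 15 for A6:A8. The exact permutation test of Cyp3a11 and the co-variation within 16 B6 mice were chosen after seeing the data. No paired analysis was possible because the labels carry no replicate numbers and the numbers used here only name mice.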
